A study of Homo sapiens with 32 samples.

Results

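The 40S subunit of the cytosolic ribosome carries the mRNA and reads its codons, and its proteins are encoded by nuclear genes whose mRNAs are among the most abundant in a growing cell. The mRNAs described here are 28 of these, chosen by gene symbol and by the protein-coding class given in the count tables: RPSA, RPS2, RPS3, RPS3A, RPS4X, RPS6, RPS7, RPS9, RPS10, RPS12, RPS13, RPS14, RPS15, RPS15A, RPS16, RPS18, RPS19, RPS20, RPS21, RPS23, RPS24, RPS25, RPS26, RPS27, RPS27A, RPS28, RPS29 and FAU. Each had 1 row among 19815 protein-coding genes, and all 28 passed the filter on low counts in both cell lines, with 1723 to 170992 counts in a library. Other genes of the subunit were not taken as members. The data were RNA-Seq counts of 32 libraries from MCF10A, an immortalised but non-tumorigenic line of breast epithelium, and MDA-MB-231, a line from a metastatic triple-negative breast carcinoma. Cells of each line were kept in normoxia (N), in hypoxia of 0.5% O2 for 24 hours (H), in normoxia with 2.5 µM PP242 for 3 hours (NPP), or in the same hypoxia with the same PP242 treatment (HPP). PP242 is an ATP-competitive inhibitor of the mTOR kinase and acts on both mTOR complexes. Poly(A) RNA was taken from whole lysate (total, T) and from the polysome fractions of a sucrose gradient (polysomal, P), with 2 biological replicates for each of the 16 combinations. No gene was edited or introduced in either line, and the normoxic libraries without PP242 were the reference for every treatment.

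Ribosomal protein mRNAs are the classic members of the TOP class, named for a 5′ terminal oligopyrimidine tract: a cytosine at the cap followed by an unbroken run of pyrimidines. When mTOR complex 1 is inhibited, its substrates 4E-BP1 and LARP1 hold these mRNAs away from the translating ribosomes, and the mRNAs shift from polysomes to lighter fractions while they stay in the cell. Because a polysome is several ribosomes on 1 mRNA, an mRNA with a short coding sequence can hold fewer of them and sediments higher in a gradient.

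To show what the start of these mRNAs looks like, 12 RefSeq starts on GRCh38.p14 are printed 5′ to 3′, with 10 bases before the annotated start and 20 from it. They include those of RPS18 and RPS12, the members with the deepest and shallowest polysomal changes with PP242 in normoxic MDA-MB-231. Those of the 4 members with the shortest coding sequences are included too. The rest are starts of members with a particular role and further examples. Capitals mark the pyrimidine run that begins at the annotated first base.
RPS18: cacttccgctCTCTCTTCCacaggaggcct
RPS19: ccccgtcgttCCCTTTCCCCTggctggcag
RPS6: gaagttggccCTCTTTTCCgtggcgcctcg
RPSA: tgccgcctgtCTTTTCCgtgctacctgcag
RPS27A: ggcgttcttcCTTTTCgatccgccatctgc
FAU: tcgcttcttcCTCTTTCTCgactccatctt
RPS12: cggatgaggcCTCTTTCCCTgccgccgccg
RPS21: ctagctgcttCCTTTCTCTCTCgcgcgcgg
RPS27: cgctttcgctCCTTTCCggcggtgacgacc
RPS28: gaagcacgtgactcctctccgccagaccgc
RPS29: agcgcgcagcTggcagcggtggttgtttct
RPS15: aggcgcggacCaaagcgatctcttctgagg
These windows lie at chr6:33272065-33272094 (plus strand) for RPS18, chr19:41860245-41860274 (plus) for RPS19, chr9:19380217-19380246 (minus) for RPS6 and chr3:39406710-39406739 (plus) for RPSA. Those of RPS27A and FAU lie at chr2:55232678-55232707 (plus) and chr11:65122115-65122144 (minus). RPS12 is at chr6:132814559-132814588 (plus), RPS21 at chr20:62387093-62387122 (plus) and RPS27 at chr1:153990752-153990781 (plus). RPS28 is at chr19:8321486-8321515 (plus), RPS29 at chr14:49598691-49598720 (minus) and RPS15 at chr19:1438386-1438415 (plus). Each window spans the upstream flank and the first bases of exon 1 of a RefSeq transcript. Several starts are listed for RPS19 and RPS27A, and the one with the pyrimidine run is shown. The RefSeq start of RPS29 lies outside the span of the canonical transcript of the gene in GENCODE (chr14:49583577-49586380). The start of that transcript was not examined. Entries for 25 of the 28 members were used, and RPS2, RPS15A and RPS20 are not shown. Of the 25 members, 19 (76%) had at least 1 listed start with a C as its first base and at least 5 pyrimidines in an unbroken run from it, read on the strand of the gene, against 1404 of 27305 genes in the whole table (5.14%). RPS4X, RPS7, RPS15, RPS26, RPS28 and RPS29 had no such start in the table. Some of them had a pyrimidine run that began within 10 bases of the annotated start. The longest was 11 bases in RPS7, 9 in RPS26 and RPS28, 8 in RPS15, 5 in RPS4X and 2 in RPS29. An annotated start is not always the start that a cell uses, and starts were not measured in these libraries.

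The libraries held between 18340916 and 46032327 counts (median 34561484). CA9, a target of HIF1α, lay between 7.72 and 26.9 CPM (counts scaled to library size with TMM factors) in 8 MCF10A libraries from normoxia, and between 521.7 and 1356 CPM in 8 from hypoxia. In MDA-MB-231 the ranges of CA9 were 0.0568 to 1.02 CPM and 13.0 to 34.6 CPM, so oxygen labels and CA9 matched in all 32 libraries. MCF10A libraries had the basal keratins KRT5 (1190 to 3268 CPM), KRT14 (458 to 4203) and KRT17 (48.5 to 1034), but CDH1 (0 to 0.361 CPM) and TP63 (0 to 0.226 CPM), both usual in this line, were at or near 0. MDA-MB-231 libraries had VIM (3113 to 6082 CPM), ZEB1 (43.6 to 88.2) and AXL (699.8 to 1053), while SPARC stayed at 0.0871 to 0.796 CPM. VIM did not separate the lines, with 1691 to 9370 CPM in MCF10A, and SPARC was higher there (91.7 to 202.7 CPM). Markers of leukocytes and endothelium were low in both lines, with PTPRC at 0 to 1.14 CPM and PECAM1 at 0.105 to 2.17. ACTA2, a marker of smooth muscle and fibroblasts, was at 10.8 to 33.0 CPM in MCF10A and at 0.787 to 1.62 in MDA-MB-231. The luminal marker ESR1 was at 0 to 0.393 CPM over both lines. Replicates of MCF10A differed in several groups. The total RNA with PP242 in normoxia, replicate 2, had a TMM factor of 0.764 and gave 6.04% of its protein-coding counts to the 28 mRNAs, against 3.37% in replicate 1. In polysomal RNA the shares of replicates 1 and 2 were 4.59% and 2.75% in normoxia, where replicate 1 had a TMM factor of 0.808, 2.93% and 1.67% in hypoxia, and 0.874% and 0.457% in HPP. Medians that rest on the first of these libraries, or on the normoxic polysomal replicate 1, are also given without it where they move most.

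In normoxia the 28 mRNAs took 4.59% and 2.75% of the protein-coding counts of the 2 MCF10A polysomal libraries, and 3.395% and 3.005% of those of MDA-MB-231. With PP242 the shares of polysomal RNA were 1.19% and 1.27% for MCF10A, while MDA-MB-231 had 1.29% and 1.40%. With hypoxia and PP242 they were 0.874% and 0.457%, and 0.867% and 0.900%. In total RNA of MDA-MB-231 the share stayed between 2.28% and 3.14% in all 8 libraries. CPM are relative to the library, so a loss of polysomal RNA as a whole would not show in them, and in bulk RNA fewer cells with an mRNA and less of it per cell cannot be told apart.

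To follow single cultures, the polysomal level was set against the total level of the library with the same number in its title. The median polysomal minus total difference over the 28 mRNAs (log2 CPM) was 0.98 and −0.20 in the 2 normoxic MCF10A cultures and 0.65 and 0.23 in those of MDA-MB-231. With PP242 in normoxia it was −1.39 and −2.68 for MCF10A, against −1.02 and −1.27 for MDA-MB-231. With PP242 in hypoxia it was −1.88 and −3.66, and −1.57 and −1.49. In hypoxia alone it was 0.47 and −1.07 for MCF10A, against 0.82 and −0.25 for MDA-MB-231. Against the normoxic culture with the same replicate number, the difference was lower for 28 of 28 mRNAs in all 8 cultures with PP242. In hypoxia alone it was lower for 25 and 28 mRNAs in MCF10A and for 4 and 22 in MDA-MB-231. Across replicate numbers some values with and without PP242 overlapped in MCF10A: RPS12 was at −3.37 in hypoxia, replicate 2, and at −2.78 in HPP, replicate 1. The hypoxic replicates of MDA-MB-231 without PP242 went opposite ways for most members.

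**Figure D1:**
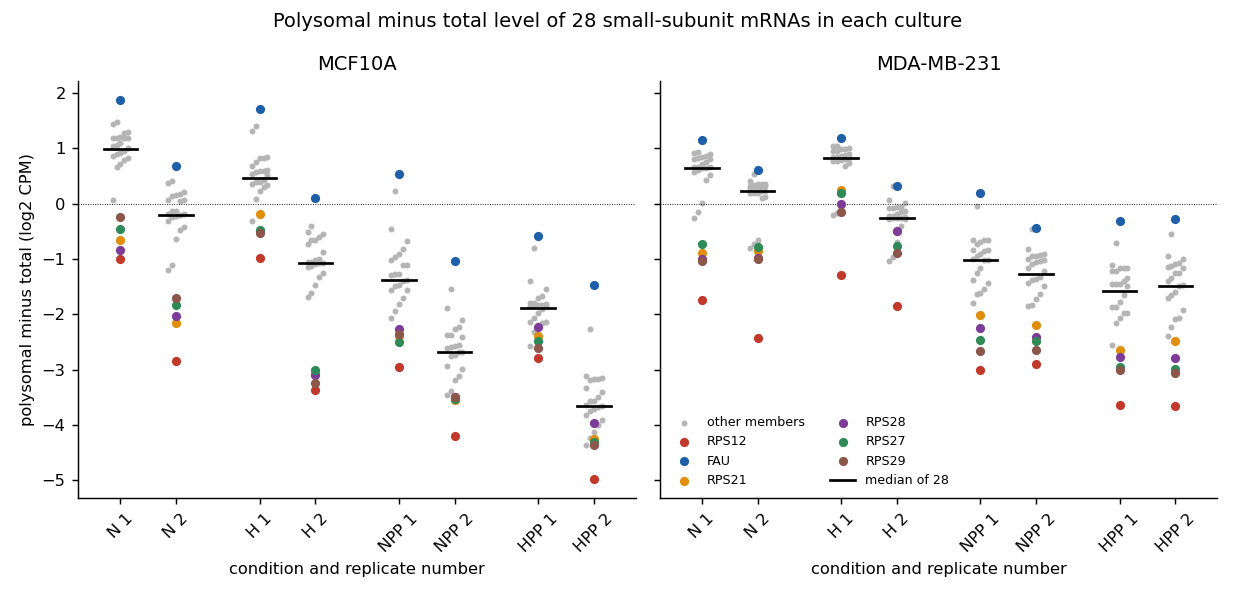
Polysomal minus total level (log2 CPM) of each of the 28 mRNAs in each of the 16 cultures, by condition and replicate number, with MCF10A on the left. Points are genes and the bar is their median; RPS12 is the lowest point in all 16 cultures, FAU is the highest in 15, and all medians of cultures with PP242 lie below −1.

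The members at both ends of the order were the same in nearly every culture. RPS12, a protein of the beak of the subunit, had the lowest polysomal minus total difference in 16 of 16 cultures, from −4.98 to −0.97. FAU, which encodes the ubiquitin-like protein FUBI fused to the ribosomal protein eS30, had the highest in 15 of 16 cultures, from −1.48 to 1.87. In the remaining culture (MDA-MB-231 in hypoxia, replicate 2) it was second to RPS15. RPS28 and RPS29 were below 0 in all 16 cultures, and RPS21 and RPS27 in 15. RPS12, RPS21, RPS27, RPS28 and RPS29 held all of the 5 lowest places in both MCF10A cultures in normoxia and in all 4 cultures of the lines with PP242 in normoxia. In MDA-MB-231 cultures in hypoxia without PP242 they held 2 and 3 of the 5 places.

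The comparison of polysomal with total RNA in normoxia asked which of these mRNAs were most held on polysomes before any treatment. It was tested in each line by the quasi-likelihood test of edgeR over all genes, with Benjamini-Hochberg adjustment and a call at an adjusted p under 0.05. In MDA-MB-231, RPS12 was at 258 and 199 CPM in polysomal RNA and at 862 and 1067 CPM in total RNA. Its polysomal level lay well below the total level in both cultures, with a log2 fold change of −2.08 ± 0.22 (SE, n = 2) and an adjusted p of 1.26e-04 in edgeR's test. FAU went the other way, with 725 and 595 CPM in polysomal and 327 and 392.1 CPM in total RNA, a log2 fold change of 0.88 ± 0.20 and an adjusted p of 0.0138. The 4 members with under 100 codons were all lower on polysomes: RPS29 (56 codons) by a log2 fold change of −1.01, RPS28 (69 codons) by −0.99, RPS21 (83 codons) by −0.87 and RPS27 (84 codons) by −0.76. RPS29 and RPS27 are zinc-binding proteins, of the head and of the platform side of the subunit. RPS9 and RPS15 were higher, at 0.62 and 0.73. In all, 3 of 28 members were called higher and 5 lower in MDA-MB-231, with positive values for 20 and negative ones for 8. Of all 13510 genes tested, 13.1% were called in either direction. DESeq2 called 13 higher and 5 lower, with 2499 of all genes called. The count rested on few libraries: it was 1 without the normoxic polysomal library 1, 4 without the total library 1 and 2 without the total library 2.

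In MCF10A the same members stood at the ends, with RPS12 at −1.68 ± 0.73 and FAU at 1.41 ± 0.54 on the log2 scale. RPS12 was at 651 and 197 CPM in polysomal and 1300 and 1409 CPM in total RNA, so its replicates differed about as much as its fractions. Values of −1.31 for RPS28, −1.20 for RPS21, −0.95 for RPS27 and −0.76 for RPS29 followed. None of the 28 members, and 0% of the 13124 genes tested in this line, passed the threshold in edgeR, with 2 members at an unadjusted p under 0.05 and 0 called by DESeq2. The spread between replicates, as edgeR's biological coefficient of variation, was wider in MCF10A (0.325) than in MDA-MB-231 (0.150), so a difference of a given size passed less readily there.

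Most members lay together in normoxia, and the spread came from a few. The median log2 fold change of polysomal against total RNA over the 28 was 0.54 for MCF10A, against 0.44 for MDA-MB-231, and the SD between members was 0.777 and 0.709. A single member had a median SE of 0.562 and 0.206, so the SD was larger than this SE in both lines. The scaled median absolute deviation between members, which a few outliers move little, was 0.371 and 0.249. It was below the SE in MCF10A. The SE also holds differences between replicates that members of a library share. Without the normoxic polysomal replicate 1 of MCF10A the median log2 fold change of that line was −0.27. Members farther than 3 scaled median absolute deviations from the median were called outliers. They were RPS12, RPS21, RPS27, RPS28 and RPS29 in both lines, and in MDA-MB-231 also RPSA (−0.46), RPS2 (−0.47) and RPS20 (−0.38). RPSA is also known as the laminin receptor precursor, and RPS2 lies near the mRNA entry. RPSA, RPS2 and RPS28 were also the 3 members with near-identical pseudogene rows that took over 1% of their joint counts, at medians of 4.20%, 4.21% and 4.08%, so their counts are less certain. Between the lines, the members kept much of their order, with a Spearman rho of 0.909 across 28 genes and of 0.841 across the 23 without the 5 shared outliers. Those genes share libraries and are not independent replicates.

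**Figure D2:**
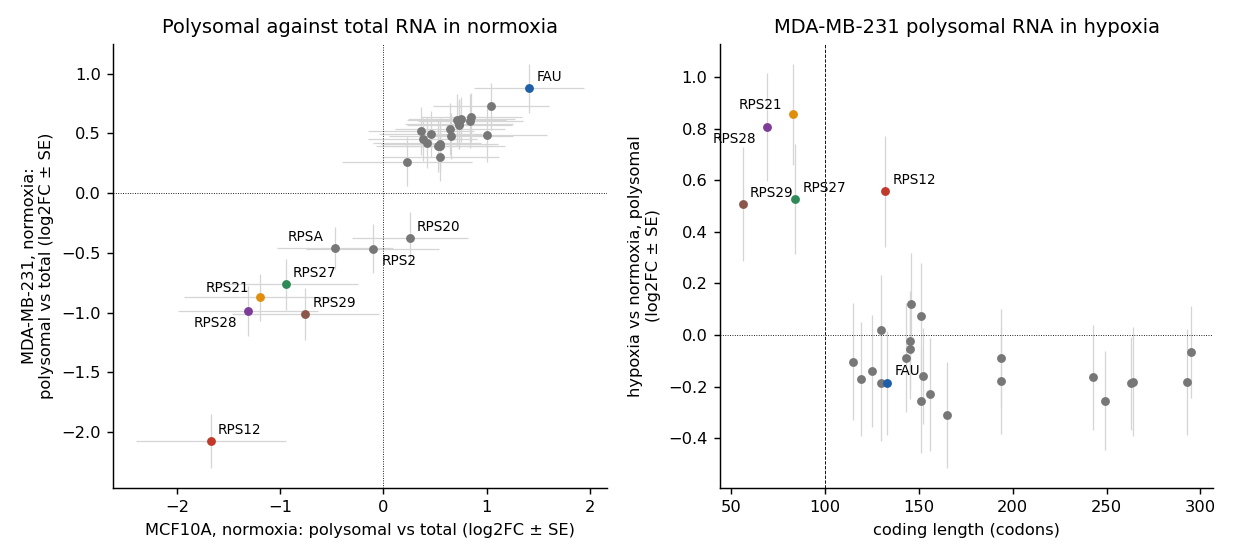
Left, log2 fold change of polysomal against total RNA in normoxia in MCF10A (x axis) and MDA-MB-231 (y axis) for 28 mRNAs with bars of 1 SE; RPS12 lies lowest in both lines and FAU highest. Right, log2 fold change of polysomal RNA in hypoxic against normoxic MDA-MB-231 against coding length in codons, where RPS21 and RPS28 lie highest (0.86 and 0.81), the dashed line is at 100 codons and RPS12 has 132.

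Inhibition of mTOR in normoxia asked which of these mRNAs left the polysomes within 3 hours. In MDA-MB-231 polysomal RNA all 28 members had negative values and 27 were called lower. Of all genes 1.95% were called in either direction and 1.19% were called lower. The median log2 fold change of the members was −1.38, or 38.4% of the normoxic level, and that of all genes was −7e-04. RPS18, a protein of the head of the subunit, was at 2828 and 2548 CPM in normoxic and at 637 and 732 CPM in PP242-treated polysomal RNA. Its total RNA was at 1911 and 2185 CPM in normoxia and at 1941 and 1984 CPM with PP242. Both treated polysomal values lay far below the untreated ones while total RNA hardly moved, and the polysomal log2 fold change of −1.97 ± 0.19 (adjusted p = 8.69e-05, edgeR) made RPS18 the single outlier of this comparison. RPS19, mutated in Diamond-Blackfan anaemia, fell by 1.95 on the log2 scale, RPS15A by 1.68 and RPS3A by 1.67. RPS6, the substrate of the S6 kinases below mTOR complex 1, was at 1976 and 1691 CPM in normoxia and at 645 and 717 CPM with PP242. It fell by 1.43 ± 0.20 (adjusted p = 0.00114), close to the median of the members. RPS27A, a fusion of ubiquitin with a ribosomal protein, fell by 1.40, RPSA by 1.13 and FAU by 0.93. RPS12 had the smallest change, −0.81 ± 0.22 with an adjusted p of 0.0797, and was the member that was not called, with 258 and 199 CPM in normoxia against 114 and 148 with PP242. Without the PP242-treated polysomal library 1 the count of called members was 15.

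**Figure D3:**
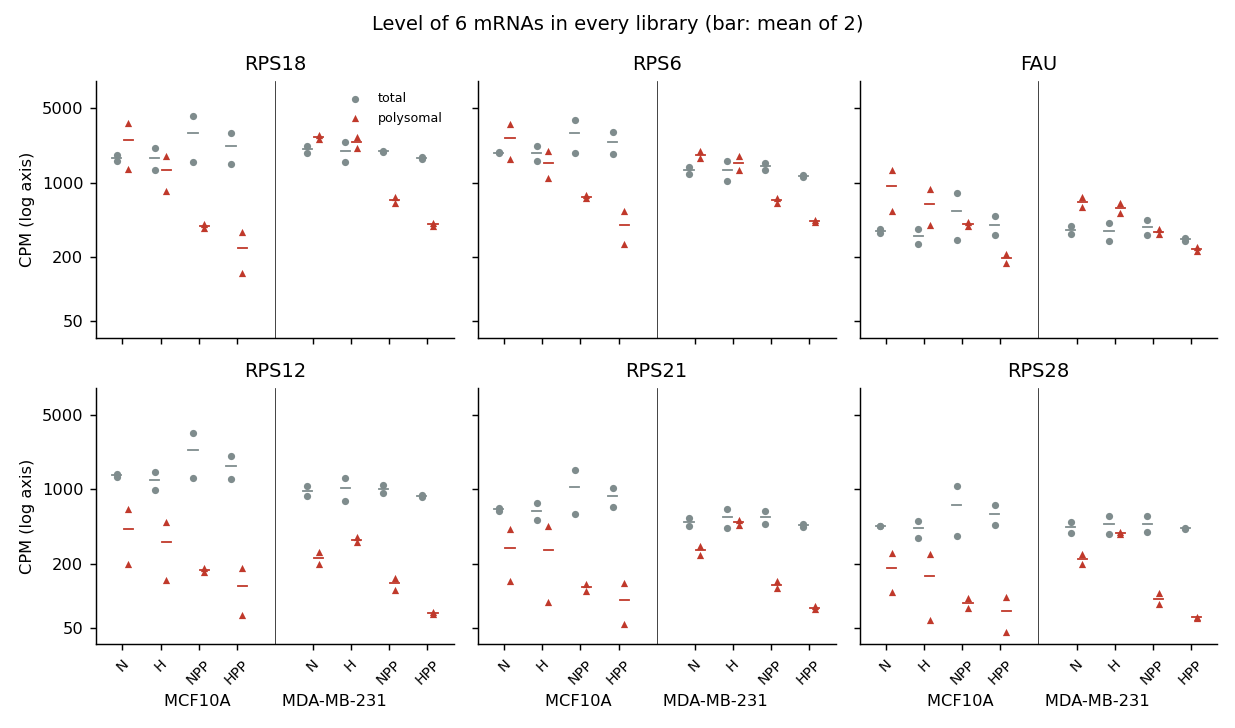
CPM on a log axis in every library for 6 of the mRNAs, by condition (N, H, NPP, HPP), with total RNA as grey circles, polysomal RNA as red triangles and the mean of the 2 replicates as a bar. In MDA-MB-231 the polysomal points of all 6 mRNAs lie lower in NPP and HPP than in N, while the total points stay close to those of N.

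In MCF10A the same treatment gave lower values for all 28 members, with a median log2 fold change of −1.78 (29.0% of normoxia, and −1.17 without the normoxic polysomal replicate 1), but none passed the threshold in edgeR. All genes had a median of −0.04, and 0.823% of them were called. At an unadjusted p under 0.05 there were 22 members, and DESeq2 called 17, with 665 of all genes called. With a replicate block within fraction edgeR called 19, with 666 of all genes called. No source says that replicate numbers pair the libraries between conditions. RPS18 again had the lowest value (−2.69 ± 0.67, adjusted p = 0.0853), and RPS28 the highest (−1.08 ± 0.68, adjusted p = 0.563). In the libraries, RPS18 was at 3661 and 1350 CPM in normoxia and at 371 and 408 CPM with PP242. Both treated values lay below both untreated ones, although the untreated pair differed by more than the treated pair. RPS6 was at 3579 and 1679 CPM in normoxia against 719 and 757 with PP242 (−1.83 ± 0.51, adjusted p = 0.121). RPS27A stood at −1.77, FAU at −1.20 and RPSA at −1.10. Across the 28 genes the values of the lines had a Spearman rho of 0.727 here, of 0.512 in HPP polysomal RNA and of 0.414 in hypoxic polysomal RNA (0.177 without the 5 shared outliers of normoxia).

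PP242 in hypoxia was compared with untreated normoxia too, and its difference from PP242 in normoxia was not tested. In MDA-MB-231 28 of 28 members were called lower, against 19.4% of all genes called in either direction and 9.73% called lower. The median log2 fold change of the members was −2.05 (24.1% of normoxia). RPS18 was the lowest at −2.73 ± 0.20 (adjusted p = 1.41e-06), with 416 and 393 CPM. RPS12 fell by 1.72, with 70.8 and 67.5 CPM, and FAU had the smallest change, −1.47 ± 0.21 (adjusted p = 2.76e-04), with 228 and 248 CPM. In MCF10A all 28 members had negative values and 24 were called lower, against 22.2% of all genes called in either direction and 11.9% called lower. The median of the members was −2.80 (14.4% of normoxia, and −2.08 without the normoxic polysomal replicate 1). RPS13, a protein of the body of the subunit, had the lowest value at −3.40 ± 0.56 (adjusted p = 0.00190), with 1547 and 679 CPM in normoxia and 136 and 75.7 CPM in HPP. RPS26, at the exit of the mRNA channel, and RPS23, at the decoding centre, fell as well (−3.20 and −3.19), as did RPS6 (−2.71), RPS27A (−2.92), FAU (−2.26) and RPSA (−1.99). RPS12, RPS21, RPS27 and RPS28 were not called, at −1.77, −1.61, −1.73 and −1.35. The count for MCF10A was 6 without the HPP polysomal library 2 and 11 without the normoxic polysomal library 1. PP242 with and without hypoxia shared their normoxic controls, so the likeness of their values in a line is not independent evidence.

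**Figure D4:**
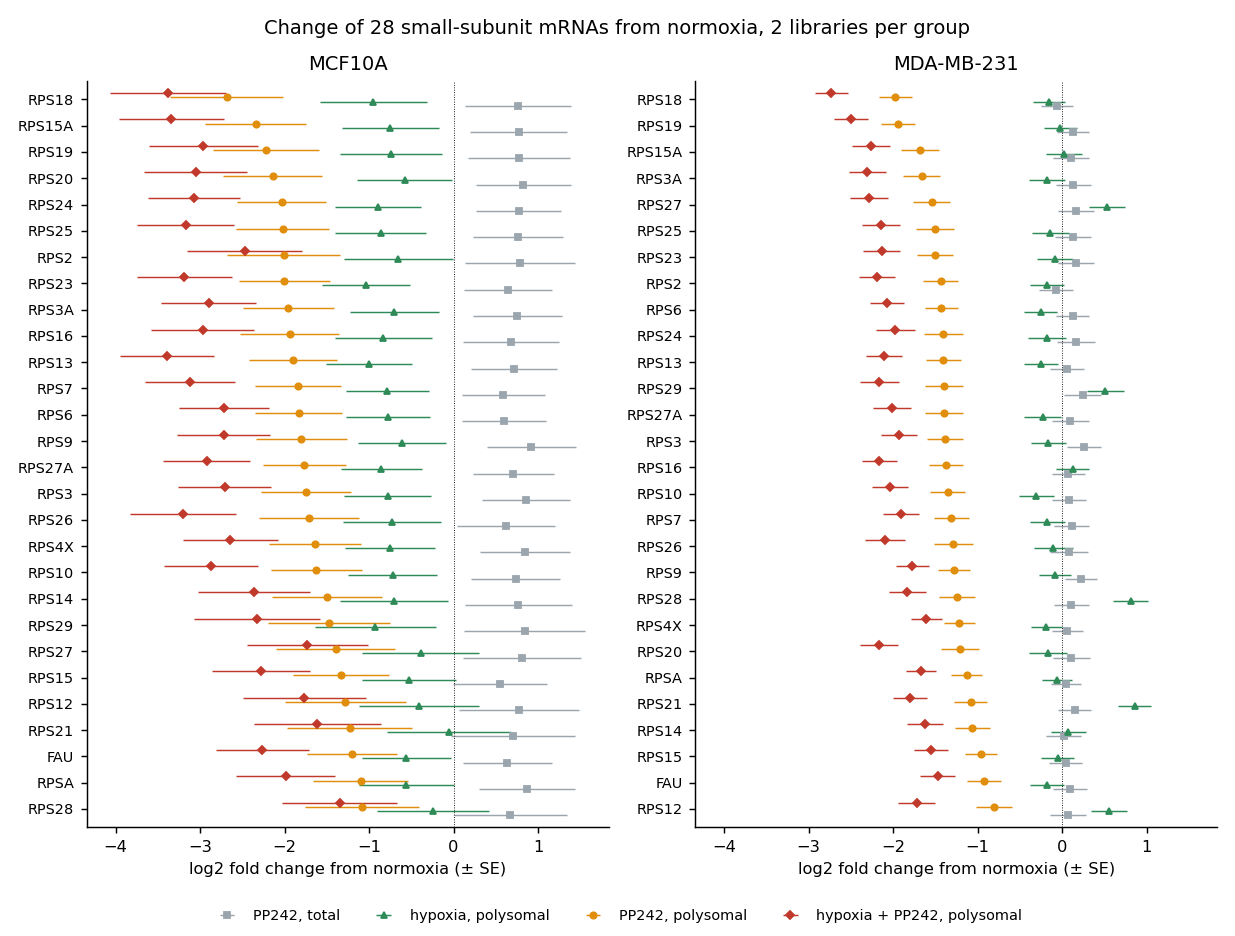
Log2 fold change from normoxia (x axis, bars of 1 SE, 2 libraries per group) of each of the 28 mRNAs in total RNA with PP242 and in polysomal RNA with hypoxia, PP242 or both, ordered by the change with PP242 in polysomal RNA. The polysomal values with PP242 lie left of 0 for every gene in both lines, and the green triangles of RPS21, RPS28, RPS12, RPS27 and RPS29 lie right of those of the other genes in MDA-MB-231.

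Total RNA showed no called member under any treatment in either line. With PP242 in normoxia the median log2 fold change of total RNA was 0.10 in MDA-MB-231, from −0.07 for RPS2 (an outlier) to 0.26 for RPS3, with 0.555% of all genes called. In MCF10A it was 0.76, from 0.55 for RPS15 to 0.92 for RPS9, with 0.648% of all genes called. That value rested on the PP242 total replicate 2, and without it the median was −0.09. For MDA-MB-231 the value was −9e-04 once the PP242 replicate 2 was left out. In HPP the median was −0.16 in MDA-MB-231, from −0.38 for RPS2 to 0.06 for RPS3 (median −0.03 without the normoxic replicate 2 and −0.275 without replicate 1), where 13.2% of all genes were called. In MCF10A it was 0.34, where 14.9% of all genes were called, with RPS26 (0.01) and RPS27 (0.63) at the ends and outlying, and without the HPP replicate 2 it was −0.06. In hypoxia alone it was 0.04 in MDA-MB-231, from −0.19 for RPS2 (an outlier) to 0.14 for RPS21, with 1.27% of all genes called. In MCF10A it was −0.08, from −0.32 for RPS26 (an outlier) to 0.08 for RPS27, with 1.54% of all genes called. Within each of these comparisons the SD between members was 0.0697 to 0.118, below the median SE of a single member. By edgeR no member had an unadjusted p under 0.05 in any of the 6 comparisons, and DESeq2 called 0 in each.

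Translational efficiency (Te) was the change in polysomal RNA minus the change in total RNA, and its test was that of an interaction term in the same model. With PP242 in normoxia, MDA-MB-231 had 13 of 28 members called lower in Te. Of all genes 0.340% were called in either direction, all of them lower. All 28 members had negative values, each with an unadjusted p under 0.05 in edgeR's test. The median was −1.46, and the extremes were RPS19 (−2.07 ± 0.27, adjusted p = 0.00500) and RPS12 (−0.87 ± 0.30, adjusted p = 1.00). RPS6 fell by 1.55, and RPS27A (−1.50), RPSA (−1.17) and FAU (−1.02) did not pass. With total and polysomal RNA of a culture paired as a block, edgeR called 1. DESeq2 called 27, and edgeR without the block called 1 or 2 without any 1 of 6 of the 8 libraries (both normoxic total, both PP242 polysomal, the normoxic polysomal library 1 and the PP242 total library 2). In HPP all 28 had negative values and 27 were called lower, against 0.696% of all genes called in either direction, again all lower. The median of the members was −1.84, from −2.46 ± 0.27 for RPS18 (adjusted p = 4.15e-04, edgeR) to −1.17 ± 0.29 for FAU, which was not called (adjusted p = 0.132). In MCF10A the medians were −2.48 in NPP and −3.17 in HPP, and both ran from RPS18 (−3.45 and −3.75) to RPS28 (−1.75 and −1.72). No member was called by edgeR in either, nor was any other gene (0% of all genes), while 25 members had an unadjusted p under 0.05 in each. DESeq2 called 19 in NPP and 22 in HPP, with 94 and 140 of all genes called. Without the PP242 total replicate 2 of MCF10A, the NPP median was −1.71.

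Hypoxia alone gave values near 0 for most of these mRNAs in MDA-MB-231, apart from a group of 5. The median log2 fold change in polysomal RNA was −0.12, with 2.29% of all genes called, and it was 0.07 without the hypoxic replicate 2 and 0.04 without the normoxic replicate 1. RPS21 was at 244 and 297 CPM in normoxic and 514 and 466 CPM in hypoxic polysomal RNA. Both hypoxic values lay above both normoxic ones, and RPS21 was the 1 member called, at 0.86 ± 0.20 (adjusted p = 0.0344). RPS28 stood at 0.81 ± 0.21 (adjusted p = 0.0598), with 197 and 249 CPM in normoxia and 381 and 401 CPM in hypoxia. RPS12 (0.56), RPS27 (0.53) and RPS29 (0.51) followed, with adjusted p of 0.201, 0.220 and 0.251, and RPS10 had the lowest value (−0.31). The 5 high members were the outliers of this comparison and the 5 that were outliers in polysomal against total RNA of normoxia in both lines. RPSA and RPS2, which also had negative values there in both lines, were at −0.07 and −0.18 in hypoxia. Both comparisons use the normoxic polysomal libraries, so the coincidence is not independent evidence. In total RNA the 2 leading members were at 0.14 (RPS21) and 0.10 (RPS28). Their Te stood at 0.71 ± 0.27 and 0.71 ± 0.29, with RPS3 lowest at −0.29, and neither passed (adjusted p = 1.00, edgeR, against unadjusted p of 0.0207 and 0.0296). Only these 2 members had an unadjusted p under 0.05 for Te, DESeq2 called 0, and 0.0148% of all genes were called. Without any 1 of the 4 polysomal libraries no member passed in polysomal RNA. With an offset for transcript length in each library, RPS21 stood at 0.44 with an adjusted p of 0.106 in edgeR's test. In that fit 3 other members were called lower, with 545 of all genes called. The length used was the median over the annotated transcripts of a gene. It was 418 bases for RPS21 but 1330 for RPS28, which has 69 codons, so the offset treated RPS28 as a long mRNA.

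In MCF10A hypoxia gave negative polysomal values for all 28 members, with a median of −0.74 (60.0% of normoxia), and none was called by edgeR or DESeq2, nor had an unadjusted p under 0.05. Of all genes 1.49% were called. RPS23 had the lowest value (−1.03 ± 0.52, adjusted p = 0.469), and RPS21 the highest, an outlier at −0.06 ± 0.73. RPS21 was at 426 and 139 CPM in normoxia and at 455 and 88.5 CPM in hypoxia, so replicates differed by more than conditions. Without the normoxic polysomal library 1 the median of the 28 was 0.04. The Te median was −0.69 (0.04 without that library), from −0.95 for RPS18 to −0.02 for RPS21 and −0.17 for RPS28, the 2 outliers. No member and 0% of all genes were called, no member had an unadjusted p under 0.05, and DESeq2 called 0.

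The difference in Te between the lines (MDA-MB-231 minus MCF10A) was tested in a joint fit of 32 libraries. It had a median over the members of 0.94 in NPP, 0.45 in H and 1.19 in HPP, so the values for MCF10A were the lower ones. In NPP it ran from 0.36 for RPS28 to 1.60 for RPS20, in H from 0.15 for FAU to 1.10 for RPS29, and in HPP from −0.17 for RPS28 to 1.69 for RPS13. RPS27 (0.06) and RPS28 were outliers in HPP. No member was called in any of the 3, by edgeR or DESeq2, and 0% of the 14298 genes tested were called in NPP, 0% in H and 0% in HPP. At an unadjusted p under 0.05 edgeR had 0, 0 and 1 members. The NPP median was 0.23 without the PP242 total replicate 2 of MCF10A. Without the normoxic polysomal replicate 1 of MCF10A the H median was −0.22 and the HPP median 0.467. A single member had a median SE of 0.856 in NPP, close to the size of the difference.

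Over all 28 members the relation of coding length to polysomal against total RNA in normoxia was weak, with a Spearman rho of 0.139 for MCF10A, against 0.319 for MDA-MB-231. With PP242 in polysomal RNA rho was −0.137 and −0.068, and in hypoxic MDA-MB-231 polysomal RNA it was −0.565. A split at 100 codons was made after the values were seen. In normoxia the 4 members under 100 codons had a median polysomal against total log2 fold change of −1.07 in MCF10A and −0.93 in MDA-MB-231, against 0.55 and 0.48 for the other 24. Other genes with under 100 codons had medians of −0.45 (256 genes) and −0.50 (264 genes). In hypoxic MDA-MB-231 polysomal RNA the 4 had a median of 0.67 and the 24 one of −0.16, and the 264 other short genes had one of 0.47. With PP242 in normoxia the polysomal medians of the 4 and the 24 were −1.32 and −1.38 in MDA-MB-231, and −1.31 and −1.84 in MCF10A. In HPP they were −2.00 and −2.05 in MDA-MB-231, and −1.67 and −2.91 in MCF10A. In hypoxic MCF10A they were −0.32 and −0.74. Other genes of MCF10A went the opposite way with PP242: those under 100 codons had medians of −0.32 in NPP and −0.55 in HPP, and longer ones −0.02 and −0.02. In hypoxic MCF10A these were −0.06 and −0.06. RPS12, with 132 codons, lay with the 4 short members in normoxia and in hypoxia, whereas RPS25 (125 codons) and RPS24 (130 codons) lay with the rest. The part of transcript length and RNA fragment size in these values was not tested beyond the length offset.

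The annotated start was set against the same values, with no test of the difference. With PP242 in normoxia, the 19 members with a pyrimidine start had a median polysomal log2 fold change of −1.40 in MDA-MB-231 (from −1.97 to −0.81) and the 6 without one a median of −1.27 (from −1.40 to −0.96). In MCF10A the medians were −1.80 and −1.56. RPS18 and RPS12, the members with the deepest and the shallowest change in MDA-MB-231, both have such a start, with runs of 9 and 10 pyrimidines in the windows shown.

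All 47 mRNAs of the large subunit measured had negative values in MDA-MB-231 polysomal RNA with PP242. In normoxia 45 were called lower and in hypoxia 47, with medians of −1.30 and −1.90. All genes called lower made up 1.19% and 9.73% in these comparisons. RPL12 had the lowest value in both (−1.93 and −2.66) and RPL41, the shortest of them, the highest (−0.39 and −1.21). In MCF10A 0 and 46 were called lower, with medians of −1.89 and −2.81 (HPP, 11.9% of all genes called lower), and 46 had an unadjusted p under 0.05 in each. In normoxia RPL41 was also the lowest of the large-subunit mRNAs in polysomal against total RNA, at −1.85 in both lines. Among 22 other mRNAs with a known TOP start, 11 were called lower with PP242 and 19 with PP242 in hypoxia in MDA-MB-231 polysomal RNA. Values were negative for 22 and 20, at medians of −0.71 and −1.06. TPT1, the translationally controlled tumour protein, fell in both (−1.93 and −2.15), and the ends opposite to it were IPO5 (−0.03) and VIM (0.06). In MCF10A 0 and 16 of these 22 were called lower, at medians of −0.87 and −1.73, and 16 and 19 had an unadjusted p under 0.05. RPS27L, the paralog of RPS27, was not called in any comparison, and in MDA-MB-231 polysomal RNA it stood at 0.17 ± 0.23 with PP242 while RPS27 stood at −1.55 ± 0.22. The difference between the paralogs was not tested.

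Factors that assemble the small subunit and process its rRNA were measured in both fractions. With PP242 in hypoxia, 17 of 38 were called lower and none higher in total RNA of MCF10A. In MDA-MB-231 20 were called lower. Values were negative for 35 and 38, at medians of −0.82 and −0.57. Their polysomal RNA was called lower for 18 and 26, at medians of −0.80 and −0.53. The medians were thus of like size in both fractions, and the median Te was 0.18 and 0.06, with none called. Of all genes, 14.9% and 13.2% were called in either direction in total RNA and 22.2% and 19.4% in polysomal RNA. LTV1, an export and maturation factor of the 40S precursor, was the lowest in total RNA of MCF10A at −2.81, and PWP2, of the small-subunit processome, in MDA-MB-231 at −1.51. With PP242 in normoxia edgeR called 1 lower in MCF10A total RNA and 0 in MDA-MB-231, with 9 at an unadjusted p under 0.05 in each line, against 0.648% and 0.555% of all genes called. Of 14 genes of the mTOR route, 2 in each line were called lower in total RNA in HPP, a share near those of all genes. EIF4E, the cap-binding factor, had the lowest value in both (−2.09 and −0.58), and TSC1 (0.90) in MCF10A and RPTOR (0.49) in MDA-MB-231 the highest.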

How the data were processed

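Poly(A) RNA libraries were sequenced as paired reads, and per the study's methods the authors used STAR v2.5.1b for alignment to GRCh38, then RSEM v1.2.28 with GENCODE v24 for gene-level estimates. The deposited values are these expected counts, whole numbers without normalisation, so no rounding was needed. RSEM shares reads that fit several genes. The labels' processing notes also name edgeR, and give GRCh37 as the build, whereas gene IDs in the tables carry versions of GENCODE v24. Columns were matched to samples through the labels' barcodes, and 0 stayed unmatched. No strand setting was stated.

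The 16 libraries of a line were fitted together with edgeR 4.0.16 in R 4.3.3 (limma 3.58.1), over protein-coding genes kept by filterByExpr, with TMM scaling, the quasi-likelihood F test and Benjamini-Hochberg adjustment over 13124 (MCF10A), 13510 (MDA-MB-231) or 14298 genes (joint fit). An error is the SE of the log2 fold change, with 2 libraries per group. The study took both fractions from each sample, so libraries with the same title number were taken as 1 culture, although the labels do not state it.

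Named members were the lowest and highest of each comparison, the outliers, RPS6, RPSA, RPS27A and FAU, and of other lists the lowest and highest gene. The 28 members, the lists and this rule were chosen with earlier results of these data known. RPS3A, RPS4X, RPS7, RPS15A, RPS24 and RPS25 fall outside the rule and were named after their values were seen. Alternatives were DESeq2 1.42.0, library totals without TMM, no filter beyond 1 read, pseudogene counts added, a length offset (loess, span 0.3), only the libraries compared, replicate blocks and leaving out each library. The block within fraction for Te and polysomal against total RNA, and the split at 100 codons, were added after the data were seen. The code was tested on simulated counts for NPP polysomal RNA. With simulated 2-fold changes edgeR recovered 1 of 99 in MCF10A and 72 of 99 in MDA-MB-231. With 4-fold changes it recovered 32 of 99 and 90 of 98, so most such changes were missed in MCF10A. Coding lengths, and the transcript lengths of the offset (the median over basic protein-coding transcripts of a gene), came from GENCODE v44. Starts came from RefSeq (GRCh38.p14).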

Additional observations from a re-analysis of the deposited data

How the results depend on the processing

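In hypoxic MDA-MB-231 polysomal RNA the length offset called 3 members lower in place of 1 higher, with 545 of all genes called in place of 310. In MCF10A, polysomal RNA with PP242 had 17 members called by DESeq2, 21 with the length offset, 1 with only the libraries compared and 19 with the replicate block within fraction, in place of 0. Te with PP242 in this line had 19 (DESeq2) and 16 (length offset), with 94 and 51 of all genes called. Te in HPP had 22, 20 and 18 with DESeq2, the length offset and the added replicate block within fraction. Of all genes 140, 95 and 100 were called. The length offset gave 4 in hypoxic polysomal RNA and 4 in polysomal against total RNA, with 559 and 356 of all genes called. In MDA-MB-231, Te with PP242 had 27 by DESeq2, 26 with the length offset, 20 with library totals, 27 without a filter, 22 with only the libraries compared, 1 with the replicate block by culture and 26 with the block within fraction, in place of 13. Hypoxic polysomal RNA had 2 by DESeq2, 2 with library totals, 5 without a filter and 2 with the block, in place of 1. These fits called 652, 306, 822 and 641 of all genes, in place of 310. Polysomal against total RNA had 18, 24, 13, 19, 14 and 17 by DESeq2, the length offset, library totals, no filter, only the libraries compared and the block within fraction, in place of 8. The same fits called 2499, 2963, 2011, 2276, 1568 and 2646 of all genes, in place of 1764. With 1 library left out, the counts ran from 6 to 24 (MCF10A, HPP polysomal RNA), 15 to 26 (MDA-MB-231, NPP polysomal RNA), 1 to 19 (its NPP Te), 0 to 0 (its hypoxic polysomal RNA), 19 to 26 (its HPP Te) and 1 to 7 (its polysomal against total RNA in normoxia). The members' median also changed sign in MDA-MB-231 hypoxic total RNA. It was −0.26 without the hypoxic replicate 2, −0.07 without the normoxic replicate 1, −0.05 with library totals and −0.06 with the length offset. Without the hypoxic replicate 1 it kept its sign, at 0.30. In MDA-MB-231 hypoxic polysomal RNA the median changed sign too (0.07 without the hypoxic replicate 2, 0.04 without the normoxic replicate 1). So did that of MCF10A hypoxic total RNA (0.18 without the hypoxic replicate 1) and of MCF10A HPP total RNA (−0.01 with the length offset). Adding pseudogene counts changed no count by more than 1.5 times. The causes were not tested.

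Some log2 fold changes changed sign, and not all of them were near 0 in the main fit. In MCF10A total RNA, RPS9 stood at 0.92 in NPP and RPS27 at 0.63 in HPP. Under the length offset they were −0.30 (RPS27, MCF10A hypoxic total RNA), 0.0624 (RPS21, MCF10A hypoxic Te), −0.15 and −0.022 (RPS26 and RPS27, MCF10A HPP total RNA), −0.0247 (RPS21, MDA-MB-231 hypoxic total RNA) and, for the difference between lines, −0.0826 (RPS28, NPP), −0.20 (FAU, H) and −0.67 (RPS27, HPP). With library totals they were −0.0256, 0.15 and −0.28 (RPS27, RPS21 and RPS26 in the first comparisons named) and −0.0174 and −0.24 (RPS28 and RPS27 between lines). With the replicate block within fraction they were −0.0553 (RPS26, MCF10A HPP total RNA), −0.0584 (RPS28 between lines, NPP) and −0.13 (RPS27, HPP), the last at −0.0729 with the block by culture. RPS21 in MCF10A hypoxic polysomal RNA was 0.0106 with only the libraries compared. With 1 library left out, MCF10A total RNA ran from −0.40 to 1.11 (RPS15, NPP), −0.0598 to 1.50 (RPS9, NPP), −0.18 to 0.30 (RPS27, H) and −0.33 to 0.38 (RPS26, HPP). RPS21 ran from −1.60 to 1.03 in MCF10A hypoxic polysomal RNA and from −1.64 to 0.99 in its Te, and RPS28 from −1.54 to 0.55. MDA-MB-231 total RNA ran from −0.30 to 0.20 (RPS2, NPP), −0.44 to 0.0856 (RPS2, H), −0.13 to 0.41 (RPS21, H) and −0.0437 to 0.17 (RPS3, HPP), and RPS3 hypoxic Te from −0.56 to 0.013. Between lines the ranges were −0.58 to 0.91 (RPS28, NPP), −0.60 to 0.76 (FAU, H), −0.90 to 0.70 (RPS27, HPP) and −0.88 to 0.41 (RPS28, HPP).

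The block by culture pairs total with polysomal RNA, and called 22 members for MDA-MB-231 HPP Te in place of 27 and 7 for polysomal against total RNA in place of 8. Between conditions no source says that replicate numbers pair the libraries. Differences between replicates 1 and 2 correlated across genes at 0.283 to 0.778 between total RNA groups of MCF10A, but at −0.25 to 0.214 between the total and polysomal library of a condition. In MDA-MB-231 these ranges were −0.187 to 0.282 and 0.00239 to 0.348, and 19 of 28 pairs of groups were over 0.1, against 11 of 28 in MCF10A. Without TMM the median of all genes moved by over 0.1 in several comparisons, at most 0.49 (MCF10A HPP Te). Every group has 2 libraries, and the members had 1723 to 170992 counts in a library. The parts of replicate spread and of depth in these values were not tested.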
